A study of Mus musculus with 5 samples.

Results

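The B4-type composite SINEs are listed under 4 names, B4, B4A, ID_B1 and RSINE1, and were taken by exact name from the count tables of mouse RNAs of medium length (melRNA-seq). These are 4 of the 1031 repeat and small RNA names in the tables, all 4 have reads in each of the 5 libraries, and the spermatogonia tables file them, and no other name, under the class SINE/B4. All RNA came from C57BL/6J mice. Whole testis RNA gave 3 libraries with 1 library per treatment, namely untreated, treated with 25 U of TAP for 1.5 h (spelled out in the labels as tobacco alkaline phosphatase) and treated with 20 U of 5' polyphosphatase for 0.5 h. FACS-purified spermatogonia, the mitotic germ cells, gave 2 libraries after RppH treatment. The study's methods place the spermatogonia, and its list of tissues the testes, at postnatal day 7, and the labels give an RNA length of 115 to 255 nt for all libraries. For spermatogonia the labels repeat the testis protocol, whereas the methods name a selection on a gel without its limits, so this length is less certain there. According to the methods, the spermatogonia were sorted by the surface protein EpCAM and their libraries made with another kit than those of testis, so tissue, enzyme and kit cannot be told apart between the groups. The tables hold no genes that mark a cell type, and the purity of the sort was not tested. The study calls the spermatogonia libraries biological replicates, and the sources used here do not say whether they came from separate mice.

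SINEs are short retrotransposons that code for no protein and are transcribed by RNA polymerase III from a promoter inside the element. ID elements descend from a tRNA-like RNA and B1 elements from the 7SL RNA of the signal recognition particle. B4-type elements join both kinds, with an ID-like part followed by a B1-like part, and they are old families whose copies are spread through rodent genomes. A primary polymerase III transcript carries a triphosphate at its 5' end and cannot be ligated to a 5' adaptor, whereas an RNA cut from a longer one often can. TAP removes caps as well as triphosphates, and 5' polyphosphatase removes triphosphates but not caps, so the enzymes bring primary transcripts into the library. Since a retained read runs from the 5' adaptor to the 3' adaptor, a read stands for an RNA molecule, and levels were not divided by length.

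Levels are given as reads per 1000000 reads of 5.8S rRNA (RPM), the unit of the study, and where the choice matters also as a share of listed reads, the reads assigned to any name. From 1067851 to 1160933 reads were listed in the testis libraries, and 3166394 and 1993087 in the spermatogonia libraries. The 5.8S rRNA took 27.2% of the untreated listed reads, 50.2% of those with TAP and 19.2% of those with 5' polyphosphatase, against 39.1% and 25.9% in spermatogonia, so the denominators do not rank the libraries alike. Intervals are at 95% and come from the read counts. They cover counting error only, as the reads carry no molecular identifiers. With 1 library per testis treatment, ratios between testis libraries have no replicate check and compare those libraries, not the treatments.

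In testis the composites were scarce, and B4A and RSINE1 gave most of their reads. B4A, a variant of B4, had 25 untreated reads, 191 TAP reads and 107 reads with 5' polyphosphatase, levels of 79.1, 356 and 514 RPM. RSINE1, a rodent SINE classed with B4, had 27, 143 and 90 reads, or 85.4, 267 and 433 RPM. Both were lowest without enzyme, and no change in their order between the testis libraries was detectable. The number of RSINE1 reads per B4A read was 1.08 (interval 0.627 to 1.86) when untreated, 0.749 (0.603 to 0.930) with TAP and 0.841 (0.635 to 1.11) with 5' polyphosphatase. The interval excludes 1 in the TAP library alone. Between libraries the number did not differ beyond counting error. TAP over untreated was 0.693 times (0.386 to 1.25), 5' polyphosphatase over untreated 0.779 times (0.422 to 1.44) and TAP over 5' polyphosphatase 0.890 times (0.625 to 1.27).

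ID_B1, named for its ID and B1 parts, had 9, 64 and 30 reads in the same order, or 28.5, 119 and 144 RPM. B4 had 6, 60 and 23 reads, or 19.0, 112 and 111 RPM. These were the less abundant members of the group in each testis library, and their levels could not be separated from each other at this depth. After TAP there were 1.07 ID_B1 reads per B4 read (0.750 to 1.52). The untreated counts of both lie only a little above 3 reads, a reference level for low counts that was not used as a filter. It is 9.49 RPM in that library.

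**Figure D1:**
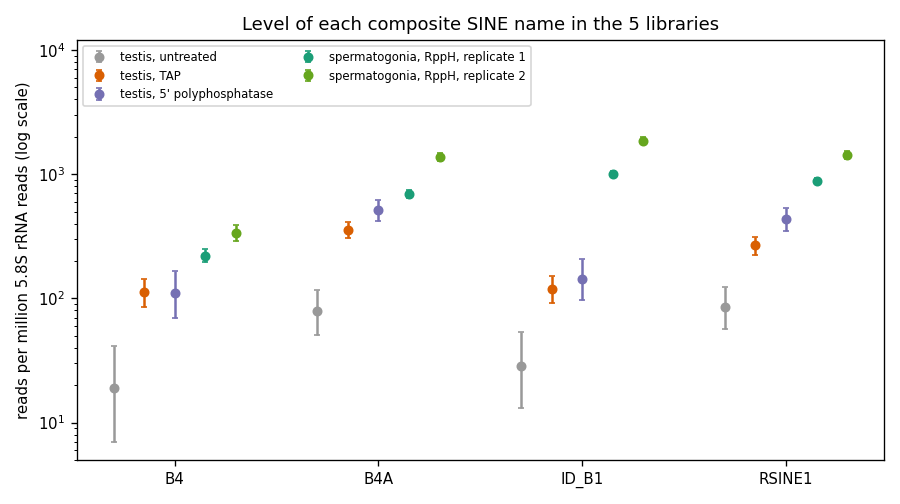
Level of B4, B4A, ID_B1 and RSINE1 in the 5 libraries, in reads per 1000000 reads of 5.8S rRNA on a log scale, with exact Poisson 95% intervals that cover counting error only. For every name the untreated testis library (gray) is lowest and spermatogonia replicate 2 (light green) highest, and ID_B1 moves from 119 RPM in testis after TAP to 1006.5 and 1866 RPM in spermatogonia.

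The first comparison asked whether the reads of the composites depend on opening the 5' end. All 4 names had more reads per 5.8S rRNA read after TAP than without enzyme. The ratio of TAP to untreated was 5.90 (2.55 to 13.7) for B4, 4.51 (2.97 to 6.84) for B4A, 4.19 (2.09 to 8.43) for ID_B1 and 3.12 (2.07 to 4.71) for RSINE1. The intervals lie above 1 and overlap each other, so no member could be told from another in this respect. Together the 4 names had 67 untreated reads and 458 TAP reads, or 212 and 854 RPM, a ratio of 4.03 (3.12 to 5.21). Of the 323 names with at least 10 reads in these libraries together, 29.1% were at least 2-fold higher after TAP, and 4 of 4 composites were. Per listed read the background was 37.8% and the count again 4 of 4. The median ratio, with 1 read added to each count, was 0.590 over all these names and 4.09 over the 4 members.

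After 5' polyphosphatase, which spares caps, the composites were higher than without enzyme as well. The ratio was 5.83 (2.37 to 14.3) for B4, 6.50 (4.21 to 10.1) for B4A, 5.07 (2.41 to 10.7) for ID_B1 and 5.07 (3.30 to 7.79) for RSINE1. For the 4 together it was 5.67 (4.33 to 7.43), at 250 reads or 1202 RPM. At least 2-fold higher levels were found for 41.1% of 314 names per 5.8S rRNA read and 30.3% per listed read, and for 4 of 4 composites under both. Over all these names the median ratio was 1.74, and over the members 5.08.

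**Figure D2:**
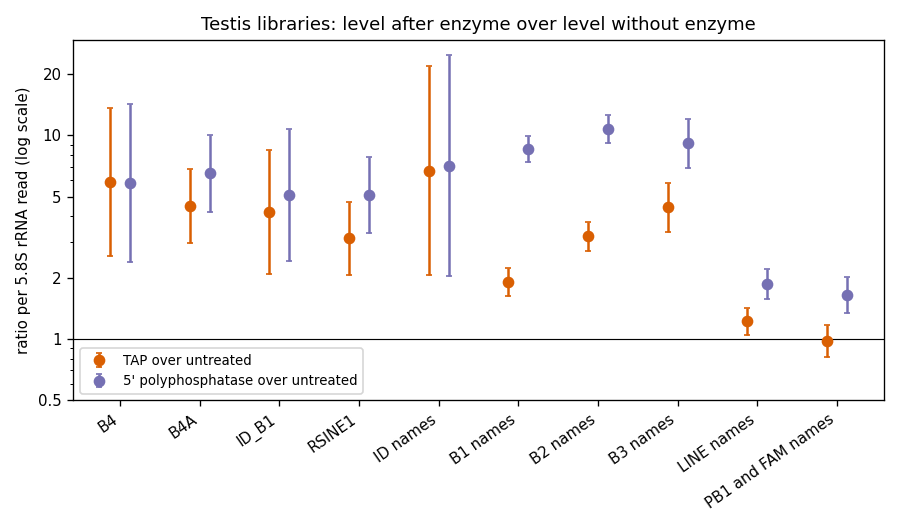
Ratio of the level after TAP (orange) or 5' polyphosphatase (purple) to the level without enzyme in testis, per 5.8S rRNA read on a log scale, for the 4 composites and for summed ID, B1, B2, B3, LINE, and PB1 and FAM names. Bars are 95% intervals from the read counts, with 1 library per treatment. The composites lie between 3.12 and 6.50 with both enzymes, whereas B1 lies at 1.90 after TAP and 8.52 after 5' polyphosphatase.

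Set against each other, the enzymes gave the composites a higher ratio of TAP to 5' polyphosphatase than B1, although the side of 1 on which it lay depended on the denominator. The level after TAP divided by that after 5' polyphosphatase was 1.01 (0.626 to 1.64) for B4, 0.693 (0.547 to 0.878) for B4A, 0.828 (0.537 to 1.28) for ID_B1, 0.617 (0.474 to 0.803) for RSINE1 and 0.711 (0.609 to 0.829) for the 4 together. Per listed read the same ratio of the 4 was 1.86 (1.59 to 2.16). For B1 it was 0.223 (0.203 to 0.245) per 5.8S rRNA read and 0.582 (0.529 to 0.639) per listed read. Under the former, the levels of the composites lay nearer to each other than those of B1. Under the latter, the composites were higher after TAP and B1 was higher after 5' polyphosphatase. Levels at least 2-fold lower after TAP per 5.8S rRNA read were found for 68.8% of 346 names and for 0 of 4 composites. Levels at least 2-fold higher per listed read were found for 18.8% of the names and for 2 of 4 composites, B4 and ID_B1.

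A ratio of ratios does not depend on the denominator. Between TAP and 5' polyphosphatase, the ratio of the composites was 3.19 times that of the 10 summed B1 names (2.66 to 3.82). Against the 4 B2 names, which are SINEs derived from a tRNA, it was 2.38 times (2.00 to 2.84), and against B3 and B3A 1.46 times (1.18 to 1.80). Against the 4 names ID, ID2, ID4 and ID4_ it was 0.754 times (0.397 to 1.43), where the interval includes 1. Each composite alone had a higher ratio than B1, from 2.77 times (2.09 to 3.66) for RSINE1 to 4.54 times (2.78 to 7.41) for B4. The composites did not differ detectably in this respect from LINE names, at 1.09 times (0.884 to 1.35), or from PB1 and FAM names, which are monomers related to B1, at 1.19 times (0.938 to 1.51), but B4 alone stood above PB1 and FAM at 1.69 times (1.01 to 2.83). Against 5S rRNA, a polymerase III transcript of the ribosome, the composites were at 1.23 times (1.05 to 1.44). Read within libraries, the composite reads per B1 read were 0.321 in the untreated, 0.681 in the TAP and 0.213 in the 5' polyphosphatase library.

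The same calculation set the enzyme dependence of the composites beside that of the B1 and ID names. The ratio of TAP to untreated was 2.12 times as large for the composites as for B1 (1.57 to 2.86). That of 5' polyphosphatase to untreated was 0.665 times as large (0.489 to 0.905), so that the order was opposite for the enzymes, although it depended on PB1 and FAM being kept out of B1 (1.07 with them). Against the ID names the quotients were 0.603 (0.180 to 2.02) for TAP and 0.800 (0.223 to 2.86) for 5' polyphosphatase. These are wide because ID had 3 reads without enzyme, and no difference from ID was detectable at this depth. 5S rRNA gave a quotient of 0.974 (0.751 to 1.26) for TAP and 0.790 (0.602 to 1.04) for 5' polyphosphatase, and both intervals include 1.

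Among the composites, the mix of names was similar in the testis libraries and different in spermatogonia. B4A made up 37.3% of the untreated reads of the 4 names (Wilson interval 26.7% to 49.3%), 41.7% of the TAP reads (37.3% to 46.3%) and 42.8% of the 5' polyphosphatase reads (36.8% to 49.0%). ID_B1 made up 13.4% (7.23% to 23.6%), 14.0% (11.1% to 17.4%) and 12.0% (8.54% to 16.6%) in the same order. The intervals of these testis shares overlap for each of the 4 names.

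In spermatogonia ID_B1 was the most abundant of the 4, with 35.9% (34.4% to 37.6%) in replicate 1 and 37.4% (35.6% to 39.3%) in replicate 2, or 36.7% ± 1.03 (SD, n = 2). B4A had 24.7% (23.3% to 26.2%) and 27.4% (25.7% to 29.2%). RSINE1 took 31.5% and 28.5%, and B4 took 7.88% and 6.73%. For ID_B1 and B4A, the intervals of the spermatogonia libraries do not overlap those of the TAP and 5' polyphosphatase libraries. Those of RSINE1 overlap the TAP library in both replicates, but the 5' polyphosphatase library in replicate 1 only. Shares depend on each other. From TAP to spermatogonia, RSINE1 changed 1.70-fold (1.35 to 2.15) and 1.39-fold (1.09 to 1.76) relative to B4A in replicates 1 and 2. Relative to B4 it changed 1.68-fold and 1.78-fold. From 5' polyphosphatase the values were 1.51-fold and 1.23-fold relative to B4A and 1.02-fold and 1.08-fold relative to B4. Of these, only the interval of 1.51 (1.13 to 2.03) excludes 1.

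**Figure D3:**
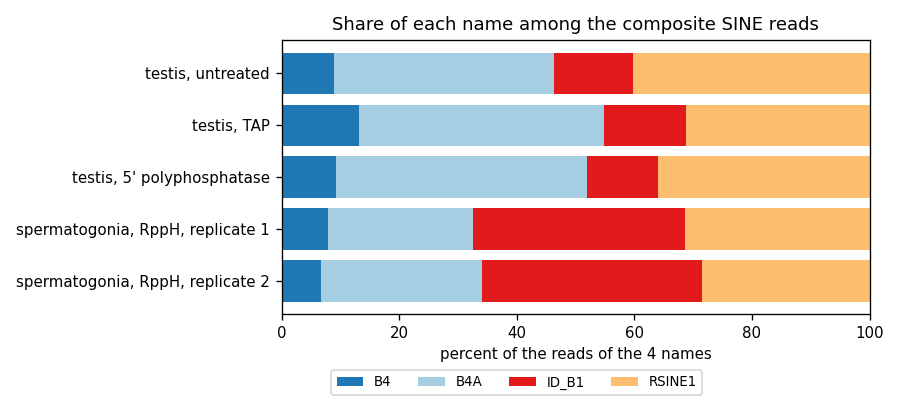
Share of B4, B4A, ID_B1 and RSINE1 among the reads of the 4 names, in percent, in each library. The ID_B1 segment (red) is 12.0% to 14.0% wide in the 3 testis libraries and 35.9% and 37.4% in the spermatogonia libraries.

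Per read of B4A in the same library, ID_B1 had 0.360 reads in the untreated library (0.168 to 0.771), 0.335 with TAP (0.252 to 0.445) and 0.280 with 5' polyphosphatase (0.187 to 0.420). It had 1.45 (1.33 to 1.59) and 1.36 (1.24 to 1.50) in spermatogonia. The difference between ID_B1 and B4A from testis after TAP to spermatogonia was thus 4.34-fold (3.23 to 5.84) in replicate 1 and 4.07-fold (3.02 to 5.49) in replicate 2. From testis after 5' polyphosphatase it was 5.19-fold (3.43 to 7.85) and 4.87-fold (3.21 to 7.38). Against B4 and RSINE1 the difference after TAP was 4.28-fold and 2.55-fold in replicate 1 and 5.21-fold and 2.94-fold in replicate 2. These values need no denominator, and the lower bound of each of their intervals lies above 1.

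The levels themselves were higher in spermatogonia than in any testis library for all 4 names. ID_B1 had 1245 reads in replicate 1 and 962 in replicate 2, or 1006.5 and 1866 RPM. RSINE1 had 1090 and 732 reads, or 881 and 1419.7 RPM. B4A had 856 and 705 reads, or 692 and 1367 RPM, and B4 had 273 and 173 reads, or 221 and 336 RPM. Only ID_B1 stood above all 3 other names beyond counting error in both replicates, while RSINE1 exceeded B4A beyond it in replicate 1 (1.27 reads per B4A read, 1.16 to 1.39) and not in replicate 2 (1.04, 0.936 to 1.15).

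The replicates differed in RPM by more than the counting error. Replicate 2 was 1.52 times replicate 1 for B4, 1.98 times for B4A, 1.85 times for ID_B1 and 1.61 times for RSINE1, and the 5.8S rRNA share of the sequenced reads in replicate 2 was 0.514 times that in replicate 1. Per listed read the factors were 1.01 (0.832 to 1.22) for B4, 1.31 (1.18 to 1.45) for B4A, 1.23 (1.13 to 1.34) for ID_B1 and 1.07 (0.972 to 1.17) for RSINE1. B4 and RSINE1 then agreed within counting error, and B4A and ID_B1 did not. The replicates differed more in 5S rRNA, at 4.27 times per 5.8S rRNA read and 2.83 times per listed read. Relative to testis after TAP, 5S rRNA per 5.8S rRNA read was at 0.383 in replicate 1 and 1.63 in replicate 2. The summed ID, B1, B2, B3, LINE, and PB1 and FAM names lay between 1.59 and 2.24 times per 5.8S rRNA read. The cause of the larger difference in 5S rRNA was not tested.

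Divided by the level in testis after TAP, ID_B1 was 12.0 ± 5.09-fold (SD, n = 2) in spermatogonia, RSINE1 4.31 ± 1.43-fold, B4A 2.89 ± 1.34-fold and B4 2.48 ± 0.725-fold. The values of ID_B1 were 8.43 (6.56 to 10.8) in replicate 1 and 15.6 (12.1 to 20.1) in replicate 2, above both values of every other member. Against testis after 5' polyphosphatase, ID_B1 was 9.96 ± 4.21-fold, RSINE1 2.66 ± 0.880-fold, B4 2.52 ± 0.734-fold and B4A 2.00 ± 0.928-fold. Per listed read the ratios to TAP were 7.31 ± 1.06 for ID_B1, 2.66 ± 0.122 for RSINE1, 1.74 ± 0.330 for B4A and 1.54 ± 0.00733 for B4 (SD, n = 2). In the whole testis samples, fewer cells of a type and less RNA per cell cannot be told apart.

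**Figure D4:**
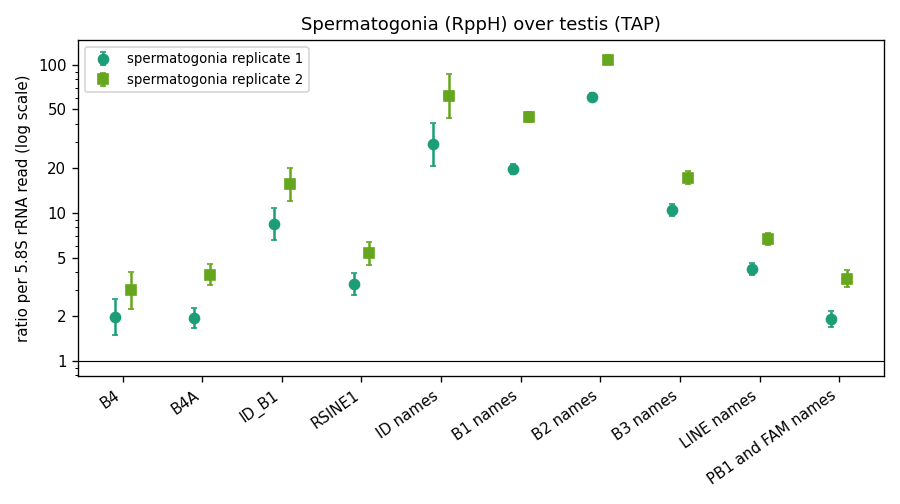
Ratio of the level in each spermatogonia library to the level in testis after TAP, per 5.8S rRNA read on a log scale, for the 4 composites and for summed ID, B1, B2, B3, LINE, and PB1 and FAM names. Circles are replicate 1, squares replicate 2, and bars 95% intervals from the read counts. ID_B1 lies at 8.43 and 15.6, above the other composites and below ID at 29.0 and 61.5.

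Of the 472 names compared with TAP, 53.4% were at least 2-fold higher in both spermatogonia libraries per 5.8S rRNA read, and of the composites 2 of 4 were, ID_B1 and RSINE1. Per listed read it was 44.3% of names and the same 2 of 4. Against 5' polyphosphatase it was 35.6% of 466 names and 2 of 4 composites per 5.8S rRNA read, and 45.7% and 4 of 4 per listed read. The number of composites past this fold against TAP was therefore near the background.

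A model over all names was fitted to the 5 libraries, in which the spread comes from the spermatogonia replicates and the single testis libraries are assumed to vary like them. Against TAP, edgeR's quasi-likelihood test called 32.2% of 487 names higher in spermatogonia at an adjusted p under 0.05, and 2 of 4 composites. In all, 157 names were called higher and 51 lower, against 100 and 83 with TMM scaling. ID_B1 had a log2 fold change of 3.59 (SE 0.96, adjusted p = 0.00107, edgeR), and RSINE1 2.11 (SE 0.88, adjusted p = 0.0424, edgeR). B4A had 1.53 (SE 0.86, adjusted p = 0.136, edgeR) and B4 1.31 (SE 1.04, adjusted p = 0.311, edgeR), and neither passed. Against 5' polyphosphatase the same test called 11.1% of the names higher and 1 of 4 composites, ID_B1, with a log2 fold change of 3.31 (adjusted p = 0.00276, edgeR). RSINE1 did not pass without the filter on low counts (adjusted p = 0.0828, edgeR) nor with TMM scaling (adjusted p = 0.233, edgeR) nor with DESeq2's own size factors (adjusted p = 0.481), while ID_B1 passed in all 7 fits.

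The median log2 fold change of all 487 names was 1.47 with 5.8S rRNA as the library size and 0.33 with TMM scaling, so the 5.8S scale carries a common shift. Relative to that median, the log2 fold change was 2.12 for ID_B1, 0.64 for RSINE1, 0.06 for B4A and -0.16 for B4. With TMM these were 2.04, 0.58, -0.03 and -0.21. B4 and B4A thus lay near the median of the names tested against TAP. Against 5' polyphosphatase, where the median was 0.36, the values relative to it were 2.95 for ID_B1, 1.05 for RSINE1, 0.64 for B4A and 0.97 for B4. For comparison, 3 of 4 ID names, 10 of 10 B1 names, 4 of 4 B2 names and 2 of 2 B3 names were called higher against TAP (edgeR).

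The ratio of spermatogonia to testis was lower for the composites than for the summed ID and B1 names. From testis after TAP, the ratio of the 4 names was 0.113 times that of the ID names (0.0793 to 0.161) in replicate 1 and 0.0949 times (0.0667 to 0.135) in replicate 2. Against B1 it was 0.165 times (0.146 to 0.187) and 0.131 times (0.116 to 0.149), and against B2 0.0542 and 0.0538 times. Against B3 it was 0.314 and 0.337 times. The size of the gap depended on the testis library, since with 5' polyphosphatase the quotient was 0.527 (0.458 to 0.607) and 0.419 (0.363 to 0.483) against B1, 0.129 and 0.128 against B2, and 0.0851 and 0.0716 against ID. In testis after TAP there were 13.5 composite reads per ID read (9.51 to 19.1), and in spermatogonia 1.52 (1.44 to 1.60) and 1.28 (1.21 to 1.36). Of all SINE reads, the composites were 9.65% in the untreated library, 15.9% with TAP and 7.80% with 5' polyphosphatase, and 1.96% and 1.86% in spermatogonia.

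With TAP as the testis library, ID_B1 lay below the summed ID and B1 names and above the other composites. Its ratio of spermatogonia to testis after TAP was 0.290 times that of the ID names (0.190 to 0.442) in replicate 1 and 0.254 times (0.166 to 0.388) in replicate 2, and 0.425 times (0.327 to 0.552) and 0.351 times (0.270 to 0.457) that of B1. Against B3 it was 0.809 (0.618 to 1.06) and 0.903 (0.688 to 1.18), where both intervals include 1. With 5' polyphosphatase as the testis library it was above B1, at 1.58 times (1.09 to 2.28) in replicate 1 and 1.30 times (0.903 to 1.89) in replicate 2, so its place relative to B1 depended on the testis library. Against B3 it was then 1.38 times (0.943 to 2.01) in replicate 1 and 1.54 times (1.05 to 2.24) in replicate 2, where only the latter interval excludes 1.

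With TAP as the testis library, B4 and B4A could not be told from the PB1 and FAM monomers. The ratio of spermatogonia to TAP in PB1 and FAM was 1.93 in replicate 1 and 3.60 in replicate 2. Relative to it, B4 was at 1.02 (0.754 to 1.39) and 0.832 (0.604 to 1.15), and B4A at 1.01 (0.825 to 1.23) and 1.06 (0.867 to 1.31). With 5' polyphosphatase as the testis library, B4 was above the monomers in replicate 1 at 1.73 (1.10 to 2.72) and at 1.41 (0.888 to 2.23) in replicate 2, and B4A was at 1.17 (0.909 to 1.50) and 1.23 (0.957 to 1.59). In the enzyme comparison they were unlike the sum of these monomers, since PB1 and FAM together stood at 0.979 after TAP (0.814 to 1.18). This does not hold for each of the names. PB1D10 went from 15.8 RPM untreated (5 reads) to 82.1 RPM after TAP and 106 RPM after 5' polyphosphatase. There were 0.170 reads of B4 and B4A per PB1 or FAM read in the untreated library, 0.831 with TAP and 0.663 with 5' polyphosphatase, and 0.841 and 0.839 in spermatogonia. LINE names, whose full transcripts are longer than the RNAs kept here, were at 4.17 and 6.62 in spermatogonia relative to TAP. Relative to LINE, B4 was then at 0.473 (0.352 to 0.635) and 0.453 (0.333 to 0.616). B4A was at 0.466 and 0.579, RSINE1 at 0.792 and 0.803, and ID_B1 at 2.02 (1.55 to 2.64) and 2.36 (1.80 to 3.09). From testis after 5' polyphosphatase, B4 was at 0.735 (0.472 to 1.14) and 0.703 (0.448 to 1.10) relative to LINE. Both of these intervals include 1, so the place of B4 below LINE depended on the testis library. B4A, at 0.495 and 0.616, and RSINE1, at 0.749 and 0.760, remained below LINE beyond counting error. ID_B1 remained above it.

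Some values move with the libraries themselves. The testis and spermatogonia tables share 619 names, out of 706 in testis and 944 in spermatogonia, and of the LINE names 57 are shared, out of 74 and 122, and some repeats are spelled in different ways. The 4 composites are spelled alike in all tables. Reads of elements that share ID-like and B1-like sequence can be exchanged between names in the assignment, which makes the split among the 4 names less certain than their sum. The part of the naming in the shift towards ID_B1 was not tested.

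The names whose profile over the 5 libraries was nearest to that of the summed composites were looked for among 208 names with at least 10 reads in each treated library. The measure was the root mean square difference of log10(RPM + 1), with each profile centered on its mean. PB1D10, a 7SL-derived monomer, was nearest at 0.0501, with 5, 44, 22, 277 and 177 reads in the untreated, TAP, 5' polyphosphatase and spermatogonia libraries. Y1 RNA, a small polymerase III RNA of the Ro particle, followed at 0.0628, B1_Mur1 at 0.111, B3A at 0.129 and an isoleucine tRNA gene with the anticodon AAT at 0.135. Of the composites themselves RSINE1 was at 0.0538, B4 at 0.0969, B4A at 0.0978 and ID_B1 at 0.217 from their sum. The sum includes each composite, so these distances are not independent of the shares given above. ID_B1 was the farthest of the composites from their sum. The 5 other names were picked as the nearest of the 208, so its distance cannot be judged against theirs. This is a description of 5 libraries.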

How the data were processed

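The 5 melRNA-seq count tables were used. The values are counts that the authors deposited per repeat or RNA name, without normalization. According to the methods they trimmed 3' adaptors with Cutadapt and assigned reads with RepeatMasker. Versions, repeat list and genome build are not given in the sources used here. The tables carry no genomic positions. Lines with totals, and 1 name without a count in each of the untreated and 5' polyphosphatase tables, were skipped. Names were joined across tables after dropping the class, the prefix of rRNA names and upper and lower case, and an absent name counted as 0.

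Members and lists were chosen with earlier results of these data known. The named items were the 4 members, the sums of ID, B1, B2 and B3 names, 5S rRNA, LINE and the 5 names of nearest profile. PB1 and FAM were added after their values were seen, and B1 excludes them. ID excludes ID_B1.

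Ratios have 95% intervals on the log scale, with reciprocal counts added up as the variance, and shares have Wilson intervals. Spermatogonia ratios are means ± SD of 2 libraries. Across all names listed in testis and spermatogonia with at least 10 reads in total, edgeR 4.0.16 (glmQLFit and glmQLFTest) was fitted to 4 groups with 1 residual degree of freedom and 5.8S rRNA reads as library size, with Benjamini-Hochberg adjustment. The standard error is the log2 fold change divided by the square root of F. DESeq2 1.42.0 was an alternative. The scripts were tested on simulated data. For edgeR the simulated spread between libraries was smaller than that fitted here, so that test does not bear on the error rate of the calls. Python 3.11.15, numpy 2.4.6, scipy 1.17.1 and R 4.3.3 were used. Alternatives changed the denominator, the members summed, the pseudocount, the replicates and the fit, and sequenced reads were taken from the study's sequencing statistics.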

Additional observations from a re-analysis of the deposited data

How the results depend on the processing

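The composites stood above the untreated library in 36 of 36 alternative ratios of either enzyme, from 3.03 to 10.9. These ratios rescale or subset the counts of the same 3 testis libraries and are not independent of each other. For the 4 names together, TAP over untreated was 7.43 per listed read and 6.51 per sequenced read, and 5' polyphosphatase over untreated was 4.01 per listed read. TAP over 5' polyphosphatase turned from below 1 to 1.86 per listed read and 1.50 per sequenced read. It turned likewise to 1.81 and 1.46 for B4A, to 1.61 and 1.30 for RSINE1 and to 2.16 and 1.75 for ID_B1, whose interval per 5.8S rRNA read includes 1. Spermatogonia over testis after 5' polyphosphatase was 5.16 per listed read and 5.60 per sequenced read. Leaving out either spermatogonia replicate gave 3.28 to 5.84 against TAP and 2.33 to 4.15 against 5' polyphosphatase. Without ID_B1 in the sum, the spermatogonia shares were 11.5% for B4, 41.2% for B4A and 47.3% for RSINE1.

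With PB1 and FAM counted as B1, the quotient of the composites to B1 was 1.07 from untreated to 5' polyphosphatase, which reversed its direction, 2.57 between TAP and 5' polyphosphatase, and 0.229 and 0.183 from TAP to spermatogonia. With B4 and B4A only, the quotients from TAP to spermatogonia were 0.0671 and 0.0591 against ID and 0.0982 and 0.0817 against B1. In the model, 1 composite in place of 2 passed with TMM scaling, with DESeq2's own size factors, without the filter on low counts and against 5' polyphosphatase, and 2 passed in the other alternatives. The number of names called in either direction was 208 in edgeR, 183 with TMM, 128 and 139 with DESeq2, 192 without the filter, 313 with names listed in any library and 157 against 5' polyphosphatase. Names called higher were 157 of 208 with 5.8S rRNA as library size and 100 of 183 with TMM. The model could not be fitted without a spermatogonia replicate, since no residual degrees of freedom remain. No paired analysis was possible because each testis treatment has 1 library and the groups share only 1 replicate number. Depth limits B4 and ID_B1 in the untreated library, with 6 and 9 reads.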
